A study of Rattus norvegicus with 288 samples.

Results

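The Id genes and the BMP signalling genes around them were followed through 3 rat tissues after oxaliplatin, sunitinib and sorafenib. The members were taken by name as Id1, Id2, Id3, Id4, Smad6, Smad7 and Bmpr2. They were 7 of the 14218 genes with a probe set of their own on the array, were covered by 17 of the 20832 probe sets assigned to 1 gene symbol, and all 7 passed the filter on low signal in heart, kidney and liver. The rats were 96 male Sprague-Dawley animals aged 8 weeks with an indwelling femoral vein cannula. Each was infused for 30 min with oxaliplatin at 15 mg/kg, or with its vehicle D5W, and was then dosed by mouth with sunitinib at 5 mg/kg, sorafenib at 25 mg/kg, sterile water (the sunitinib vehicle) or a Pluronic F68, propylene glycol and polyethylene glycol mixture (the sorafenib vehicle, called F68 here). Heart apex, left kidney and liver were collected 1, 6 or 24 h after dosing, which gave 72 groups of 4 rats and 288 arrays of total RNA from whole tissue. All animals given water or sunitinib were dosed on 1 day and all animals given F68 or sorafenib on another, so the oral vehicle and the dosing day cannot be told apart.

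Bone morphogenetic proteins (BMPs) are secreted ligands that join type I receptors to a type II receptor such as BMPR2, the product of Bmpr2. The activated type I receptor phosphorylates SMAD1, SMAD5 and SMAD9, which enter the nucleus with SMAD4 and switch on target genes, among which Id1, Id2 and Id3 are the standard readouts. SMAD6 and SMAD7, themselves induced by the pathway, are inhibitory SMADs that shut it off again. The Id proteins have a helix-loop-helix domain but no DNA-binding region, and hold E proteins (Tcf3, Tcf4, Tcf12) away from DNA. In liver, BMP6 made by endothelial cells acts on hepatocytes and sets iron balance through hepcidin. In endothelium, BMPR2 with ALK1 (Acvrl1) and endoglin (Eng) responds to circulating BMP9 and BMP10, and Id1 and Id3 are endothelial targets of that branch. Oxaliplatin is a platinum drug that cross-links DNA, and sunitinib and sorafenib are inhibitors of several kinases, the VEGF receptors of endothelium included.

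Of the members, 6 of 7 matched a RefSeq promoter of the GRCr8 assembly. The 250 bases before the start of Id1, Id3 and Smad7 are shown because the results turn on these genes. Id1 lies at chr3:161671314-161671563, Id3 at chr5:153656041-153656290 and Smad7 at chr18:71263258-71263507, all on the plus strand. Both strands of each window were searched for GGCGCC (a GC-rich SMAD element), for the palindromic SMAD element GTCTAGAC and for the cAMP response element TGACGTCA, and, after the windows were read, for TATAAA. Capitals mark each match.
Id1: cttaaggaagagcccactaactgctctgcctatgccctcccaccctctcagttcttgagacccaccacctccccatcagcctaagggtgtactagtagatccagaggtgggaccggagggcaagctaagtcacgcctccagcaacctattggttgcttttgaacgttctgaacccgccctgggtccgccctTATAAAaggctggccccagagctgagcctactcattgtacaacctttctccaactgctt
Id3: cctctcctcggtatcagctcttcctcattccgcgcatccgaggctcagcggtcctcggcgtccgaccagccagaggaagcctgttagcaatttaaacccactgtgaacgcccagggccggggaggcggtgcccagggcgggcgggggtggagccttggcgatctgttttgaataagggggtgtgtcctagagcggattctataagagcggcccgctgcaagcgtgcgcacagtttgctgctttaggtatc
Smad7: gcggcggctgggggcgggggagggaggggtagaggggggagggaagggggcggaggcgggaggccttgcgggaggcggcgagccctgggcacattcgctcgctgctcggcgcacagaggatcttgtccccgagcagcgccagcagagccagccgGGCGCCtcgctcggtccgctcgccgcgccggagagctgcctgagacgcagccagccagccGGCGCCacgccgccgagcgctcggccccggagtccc
Smad7 held GGCGCC 2 times, 96 and 36 bases before its start. Id1 held TATAAA 59 bases before its start, and neither Id3 nor the windows of Id2, Id4 and Bmpr2 held any of the 4 motifs. Among 33469 windows of this length, 8.69% held GGCGCC, 0.173% GTCTAGAC, 1.59% TGACGTCA and 12.9% TATAAA. A match is a description of these letters only.

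Values are log2 signals normalized by RMA (robust multi-array average), so a difference of 1 is a 2-fold difference, and each member is given by its brightest probe set in the tissue. Differences were tested with limma, with 1 mean for each of the 24 groups of a tissue, and a gene is said to have risen or fallen only at an adjusted p under 0.05 (Benjamini-Hochberg over all genes tested in the tissue, 11317 in heart, 12310 in kidney and 11619 in liver). On 286 arrays the fixed marker list of the labelled tissue was the brightest of the 3, at a mean level of 14.7 to 14.8 in liver, 13.8 to 14.1 in heart and 12.9 to 13.2 in kidney. The other 2 went against their labels. The liver array of replicate 1 of D5W then sorafenib at 24 h read Umod, a kidney tubule gene, at 14.4 and albumin at 6.70, and the kidney array of replicate 4 of the same treatment and time read Umod at 6.40 and albumin at 14.9. Both were left out, so that this group has 3 rats in each of these tissues, and the kidney array of its replicate 2, with albumin at 13.0, was kept. Among the arrays kept, lists of another tissue reached 8.55 for heart markers on 1 kidney array (median 5.66, next highest 6.21), 10.3 for liver markers on that replicate 2 kidney array (median 7.67) and 8.93 for liver markers on a heart array (median 6.43). The array median lay at 7.81 on 1 kidney array of oxaliplatin then sunitinib at 1 h and between 7.32 and 7.40 in the other kidney groups. In heart, D5W then water at 24 h and D5W then sorafenib at 6 h stood apart. Their median difference between the 3′ and 5′ beta-actin control probe sets, a measure of RNA quality and labelling, was 0.75 and 0.68, against 0.24 to 0.47 in the 22 other heart groups. The sources used here do not say whether arrays of these groups were labelled or hybridised apart from the rest, so a difference in handling cannot be told apart from their treatment.

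In rats given only vehicles, Id1 was bright in heart and kidney and dim in liver, while Id3 was level across tissues. Over 24 vehicle rats a tissue, the Id1 probe set averaged 11.19 ± 0.23 in heart, 10.63 ± 0.27 in kidney and 8.39 ± 0.20 in liver (SD), and the liver range, 8.01 to 8.95, did not reach the kidney range, 10.15 to 11.06. Id3 averaged 11.30 ± 0.18 in heart, 11.35 ± 0.25 in kidney and 11.38 ± 0.30 in liver, so that the order of the tissues lay within their spread. Smad6 differed as little, at 8.35, 8.56 and 8.48. Smad7 was highest in kidney at 8.37 ± 0.18, against 7.40 ± 0.24 in heart and 6.89 ± 0.39 in liver, and Bmpr2 averaged 8.59 ± 0.81, 8.07 ± 0.36 and 7.08 ± 0.26 in heart, kidney and liver. The Id2 and Id4 probe sets that serve for liver read 9.05 and 6.81 in heart, 11.88 and 11.82 in kidney, and 11.39 and 11.23 in liver. These orders were not tested, since nothing in the sources used here says whether the tissues were normalized together. Because the RNA came from whole tissue, fewer cells of a type and less RNA per cell cannot be told apart in any value below.

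**Figure D1:**
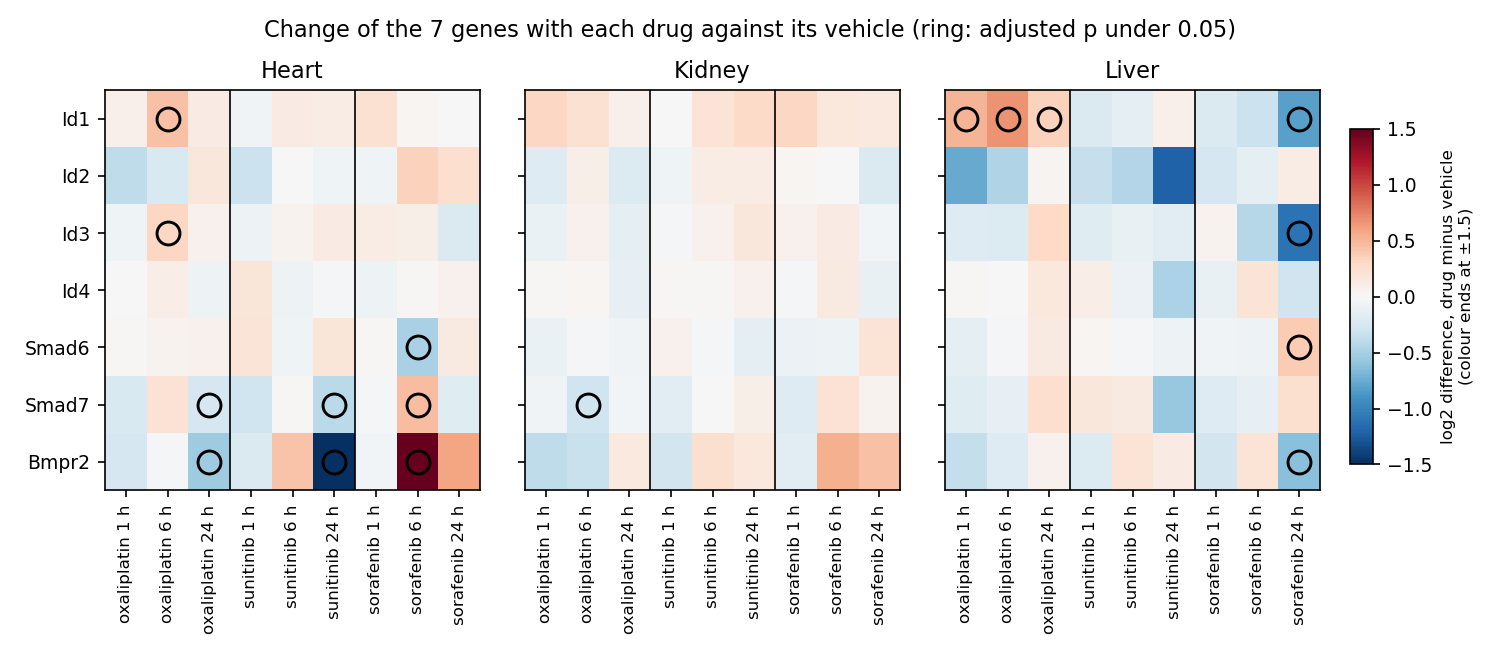
Log2 difference, drug minus vehicle, of each member (rows) in each tissue, drug and time (columns), with a ring on cells at an adjusted p under 0.05 and colours that end at a difference of 1.5 either way. Id1 in liver after oxaliplatin is the member that differs at all 3 times.

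Oxaliplatin raised liver Id1 at every time. At 1 h Id1 read 8.86, 9.07, 9.11 and 9.30 in rats given oxaliplatin then water and 8.74, 8.80, 8.90 and 8.92 in those given oxaliplatin then F68, against 8.26, 8.34, 8.45 and 8.63 after D5W then water and 8.19, 8.54, 8.58 and 8.60 after D5W then F68. At 6 h the values were 8.90, 9.05, 9.15 and 9.29 after oxaliplatin then water and 8.82, 9.13, 9.19 and 9.20 after oxaliplatin then F68, against 8.22, 8.33, 8.40 and 8.45 after D5W then water and 8.38, 8.39, 8.49 and 8.65 after D5W then F68. At both times the lowest of the 8 oxaliplatin rats lay above the highest of the 8 D5W rats. The difference was 0.51 ± 0.10 (SE) at 1 h, a 1.43-fold higher signal (8.96 ± 0.18 against 8.45 ± 0.17, SD, n = 8 each, adjusted p = 0.000478), and 0.68 ± 0.10 at 6 h, 1.60-fold higher (9.09 ± 0.16 against 8.41 ± 0.12, adjusted p = 1.8e-06). At 24 h the oxaliplatin rats had 8.64, 8.67, 8.82 and 8.93 with water and 8.13, 8.41, 8.78 and 8.87 with F68, against 8.16, 8.17, 8.24 and 8.42 after D5W then water and 8.01, 8.23, 8.35 and 8.95 after D5W then F68. The groups overlapped by then and the difference was 0.34 ± 0.10 (adjusted p = 0.0303), a call that ended in 8 of 16 fits that left out 1 rat (replicates 1 and 3 of both oxaliplatin groups, 1 and 2 of both D5W groups), with differences from 0.28 to 0.44 and adjusted p from 0.0514 to 0.0927 where it ended. The smaller difference at 24 h than at 6 h did not itself pass the test (-0.33 ± 0.14, adjusted p = 0.134). With all arrays as labelled the 1 h difference no longer passed (adjusted p = 0.087).

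Id1 was the only called member in liver after oxaliplatin, 1 of 7 at each time, where 3.46% of all genes passed at 1 h, 10.4% at 6 h and 6.42% at 24 h. The difference by oral vehicle was 0.66, 0.75 and 0.52 with water and 0.37, 0.61 and 0.17 with F68 for the 3 times in turn (SE 0.14 each). Id2 was -0.76 ± 0.27 at 1 h and did not pass (adjusted p = 0.103). Cell markers in the same liver comparisons were as follows. Of 14 endothelial genes tested, 1 rose and 7 fell at 1 h (mean level 8.12 to 8.41, against 8.53 to 8.73 in D5W rats), 1 rose and 2 fell at 6 h, and 2 fell at 24 h. Of 9 macrophage genes, 2, 5 and 6 fell at 1, 6 and 24 h. At 24 h all 3 red cell genes tested fell (9.24 to 9.76, against 10.34 to 10.90). With the endothelial level as a covariate Id1 kept its call at all 3 times, with 0.68, 0.76 and 0.36, and the part of macrophages and red cells in the result was not tested.

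**Figure D2:**
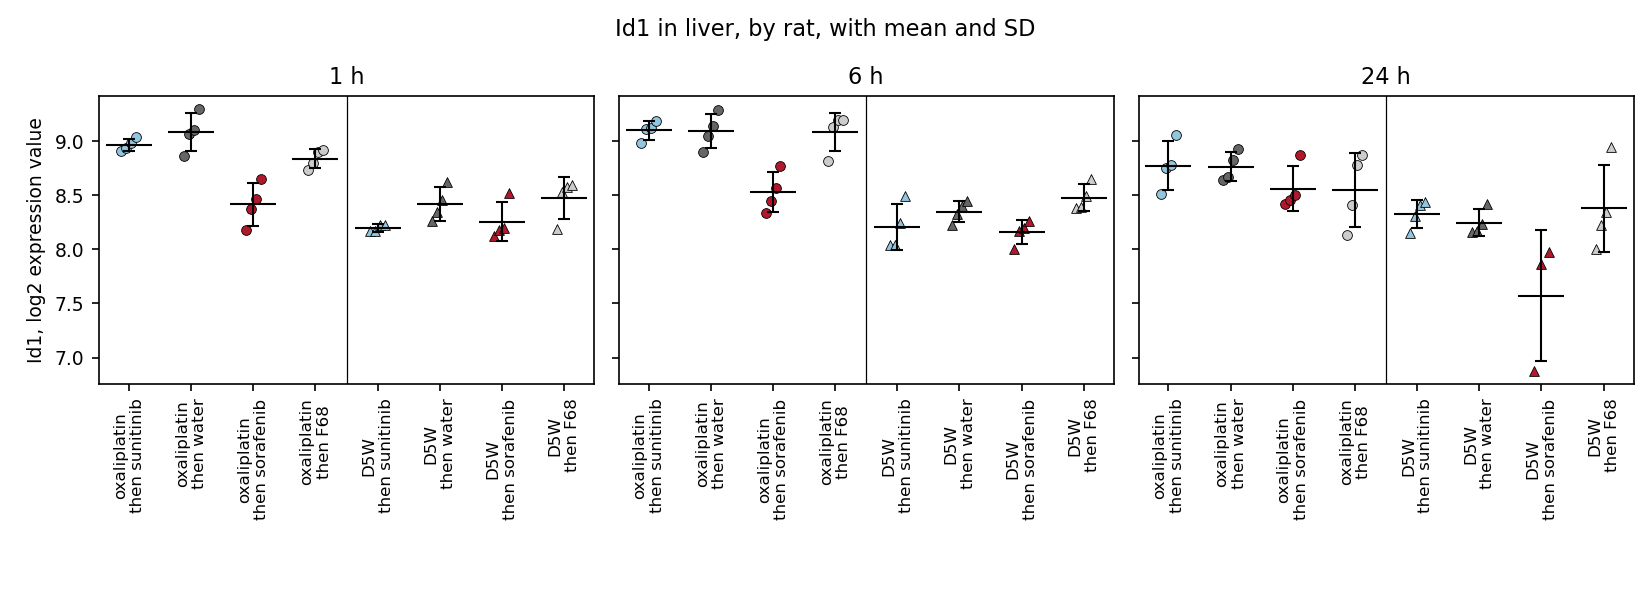
Id1 log2 signal in liver, 1 point per rat, for the 8 treatments (horizontal axis, circles after oxaliplatin and triangles after D5W) at 1, 6 and 24 h (panels), with mean and SD as bars. Rats given oxaliplatin with water, F68 or sunitinib lie between 8.74 and 9.30 at 1 and 6 h, while those given oxaliplatin then sorafenib lie between 8.18 and 8.77.

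Liver Id1 after oxaliplatin was lower where sorafenib followed. With sunitinib it read 8.91, 8.94, 8.98 and 9.04 at 1 h and 8.98, 9.11, 9.13 and 9.19 at 6 h, inside the range of oxaliplatin then water. With sorafenib it read 8.18, 8.37, 8.47 and 8.65 at 1 h and 8.34, 8.45, 8.57 and 8.77 at 6 h, against 8.74 to 8.92 and 8.82 to 9.20 after oxaliplatin then F68. No sorafenib rat reached an F68 rat at either time, and they overlapped with the rats given D5W then F68, 8.19 to 8.60 at 1 h and 8.38 to 8.65 at 6 h. Sorafenib minus F68 after D5W, without oxaliplatin, was also negative, at -0.22 at 1 h and -0.32 at 6 h, and neither passed. Sorafenib minus F68 after oxaliplatin was -0.42 ± 0.14 at 1 h and -0.55 ± 0.14 at 6 h, and the F test over the 3 times passed (F = 7.70, adjusted p = 0.0184). Id1 was the 1 member of 7 called there, with 3.21% of all genes called. At 24 h the sorafenib rats, 8.42, 8.46, 8.50 and 8.87, overlapped with the F68 rats, 8.13, 8.41, 8.78 and 8.87.

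Whether sorafenib acted differently after oxaliplatin than after D5W was tested as an interaction over the 3 times. Liver Id1 passed (F = 5.74, adjusted p = 0.0121), as did 22.2% of liver genes. The interaction term was -0.21 ± 0.20 at 1 h, -0.23 ± 0.20 at 6 h and +0.82 ± 0.21 at 24 h, where 1 of the 4 groups had 3 rats. Id3 and Smad6 had +0.80 ± 0.29 and -0.34 ± 0.11 at 24 h, and neither passed over the 3 times. Sunitinib gave no called member in liver after oxaliplatin or as an interaction (0 of 7 in each, 1 at an unadjusted p under 0.05 in each), with 0% of genes called in both.

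Sorafenib alone lowered liver Id1 and Id3 by 24 h, in a comparison in which most genes differed. In the 3 rats kept, Id1 read 6.88, 7.86 and 7.97, against 8.01, 8.23, 8.35 and 8.95 after D5W then F68, a difference of -0.81 ± 0.16 (7.57 ± 0.60 against 8.38 ± 0.40, adjusted p = 6.96e-06). Leaving out 1 rat gave -1.01 to -0.46, and the weakest value, without the sorafenib rat at 6.88, kept its call (adjusted p = 0.00889). Id3 read 10.09, 10.27 and 10.79, against 10.96, 11.45, 11.76 and 11.80, and fell by 1.10 ± 0.21 on the log2 scale, 2.15-fold (10.39 ± 0.36 against 11.49 ± 0.39, adjusted p = 6.65e-06). All sorafenib rats lay below all F68 rats for both genes. Smad6, the BMP-selective inhibitory SMAD, rose by 0.38 ± 0.08, with 8.63, 8.79 and 9.04 against 8.32, 8.42, 8.48 and 8.51 (adjusted p = 2.62e-05). Its second probe set did not pass, at 7.47 ± 0.09 in sorafenib rats and 7.33 ± 0.13 in F68 rats (+0.14, adjusted p = 0.145), and a further quantile normalization gave +0.75 on the brightest. Bmpr2 fell by 0.62 ± 0.19 on its brightest probe set, with 5.92, 6.11 and 6.51 against 6.71, 6.80, 6.81 and 6.88 (adjusted p = 0.00335). Its second probe set ran the other way, at 7.55 ± 0.17 in sorafenib rats and 6.72 ± 0.06 in F68 rats, so that the direction of Bmpr2 depends on the probe set.

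These 4 of 7 called members compare with 67.3% of all liver genes called and a median difference over all genes of -0.24. Endothelial and macrophage markers fell in the same rats: 8 of 14 endothelial genes fell and 0 rose (level 8.08 to 8.12, against 8.44 to 8.58), and 8 of 9 macrophage genes fell and 0 rose (9.75 to 10.02, against 10.44 to 10.93). Of the other lists, red cell genes had 0 up and 2 down of 3, fibroblast and smooth muscle genes 2 up and 2 down of 10, lymphocyte genes 1 up and 0 down of 4, kidney genes 5 up and 1 down of 7 and heart genes 3 up and 0 down of 4. The beta-actin difference was 0.67 at the median, against 0.82. The array median lay between 6.74 and 6.78, against 6.69 to 6.71. The authors reported that this liver group, with the array left out here, differed from the other arrays in its intensity distribution. They held a link to the response to be likely, but asked for more quality checks. With the endothelial level as a covariate Id3 was -0.48 (adjusted p = 0.115) and Bmpr2 -0.47 (adjusted p = 0.114), while Id1 and Smad6 kept their calls. At 6 h Id1 was -0.32 ± 0.14 and Id3 -0.43 ± 0.20, and neither passed the test (adjusted p = 0.515 and 0.523). At 1 and 6 h 0 of 7 members were called after sorafenib alone (0 and 2 at an unadjusted p under 0.05), with 0.0689% and 0.0344% of genes called.

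**Figure D3:**
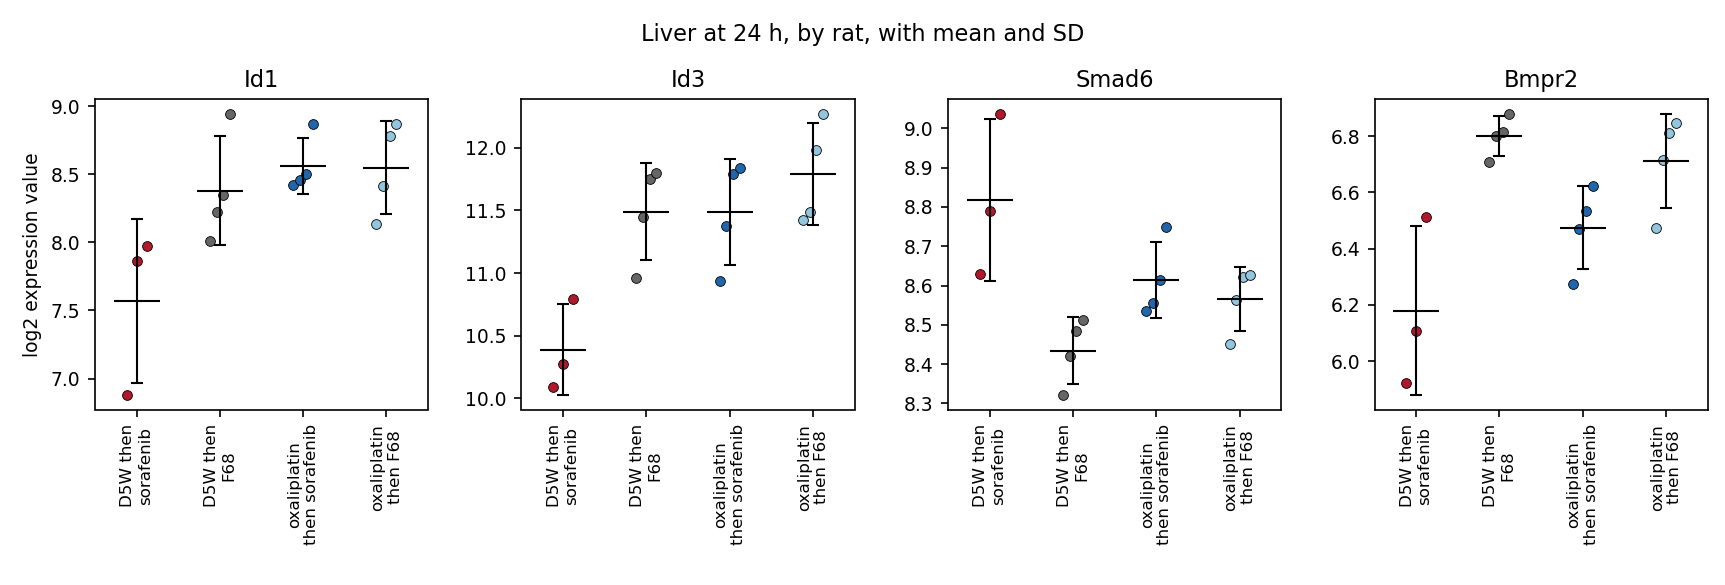
Log2 signal of Id1, Id3, Smad6 and Bmpr2 in liver at 24 h, 1 point per rat with mean and SD as bars, in the groups given sorafenib or F68 after D5W or oxaliplatin. The 3 rats given D5W then sorafenib lie below the 4 given D5W then F68 for Id1, Id3 and Bmpr2 and above them for Smad6.

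Sunitinib alone left the liver members without a call. At 24 h, Id2 read 10.12, 10.60, 10.83 and 11.42 with sunitinib, against 11.59, 11.91, 11.93 and 12.39 with water. The difference of -1.21 ± 0.38 was the largest of any Id gene in the 27 comparisons of 1 drug, but it did not pass (10.74 ± 0.54 against 11.95 ± 0.33, adjusted p = 0.0842). Id4 was -0.47 ± 0.17 and Smad7 -0.56 ± 0.19 (adjusted p = 0.138 and 0.106). The called members were 0 of 7 at 1, 6 and 24 h (0, 0 and 3 at an unadjusted p under 0.05), and 0%, 0% and 0.964% of liver genes were called.

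In heart, oxaliplatin raised Id1 and Id3 at 6 h. Id1 read 11.37, 11.57, 11.63 and 11.87 after oxaliplatin then water and 11.24, 11.52, 11.55 and 11.70 after oxaliplatin then F68, against 10.69, 10.97, 11.16 and 11.38 after D5W then water and 11.08, 11.14, 11.22 and 11.26 after D5W then F68. The difference was 0.44 ± 0.10 (11.56 ± 0.19 against 11.11 ± 0.21, n = 8 each, adjusted p = 0.00959), with 0.56 ± 0.14 in water rats and 0.32 ± 0.14 in F68 rats. Id3 read 11.38, 11.40, 11.62 and 11.72 with water and 11.25, 11.33, 11.47 and 11.66 with F68 after oxaliplatin, against 11.08, 11.13, 11.18 and 11.26 with water and 11.07, 11.13, 11.23 and 11.27 with F68 after D5W. In both genes only the lowest oxaliplatin rats overlapped with the highest D5W rats. The Id3 difference was 0.31 ± 0.08 (adjusted p = 0.046) and lost its call in 11 of 16 fits that left out 1 rat (all except replicates 1 and 2 of oxaliplatin then F68, 2 and 3 of oxaliplatin then water and 4 of D5W then water), with differences from 0.27 to 0.34 and adjusted p up to 0.165, whereas Id1 kept its call in all 16.

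These 2 of 7 members stood against 0.866% of heart genes called at 6 h. Over 11 alternative settings of the fit Id1 kept its call in 8 and Id3 in 3. Both genes have 1 probe set each, so the settings that exchange the probe set could not change their differences. Of 14 endothelial markers 1 rose and 0 fell, with a mean level of 9.27 to 9.40 after oxaliplatin and 9.14 to 9.32 after D5W, and with that level as a covariate Id1 was 0.36 and Id3 0.20 (adjusted p = 0.11 and 0.381). Within the BMP list, Hey1, a Notch and BMP target, Eng and Acvrl1 rose at the same time by 0.34, 0.22 and 0.19. At 1 h 0 of 7 members were called (1 at an unadjusted p under 0.05), where 1.23% of genes were.

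**Figure D4:**
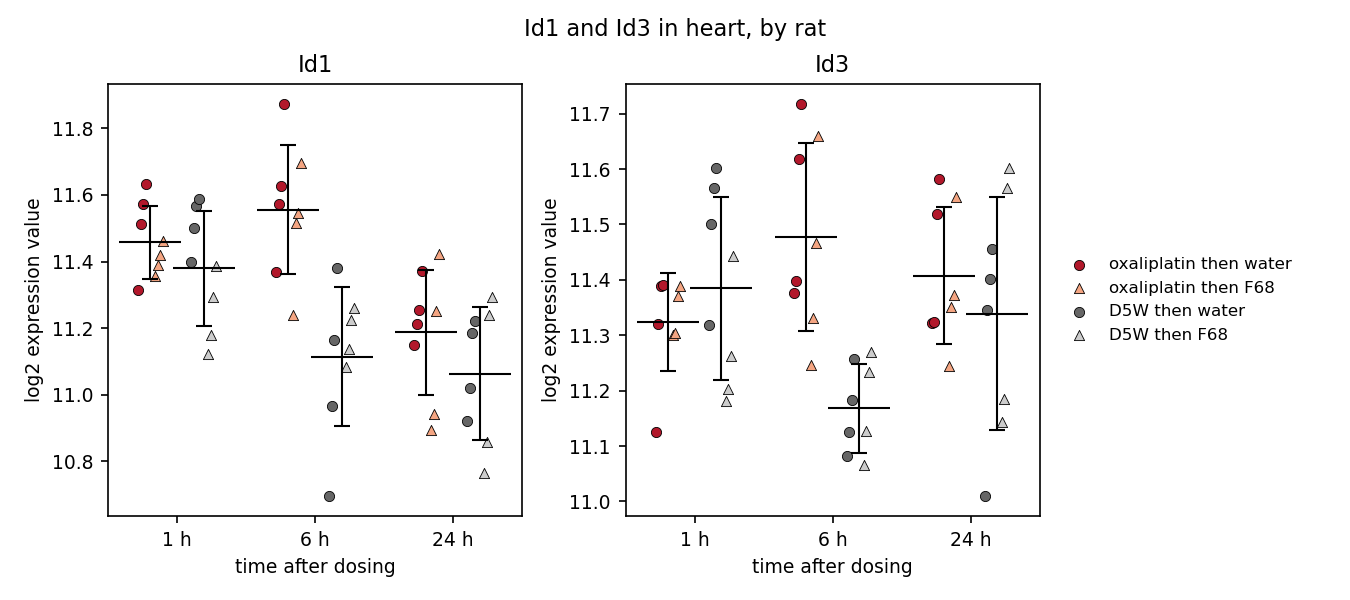
Id1 and Id3 log2 signal in heart, 1 point per rat, at 1, 6 and 24 h (horizontal axis) after oxaliplatin (left) or D5W (right) with water (circles) or F68 (triangles), with the mean and SD of the 8 rats as bars. At 6 h the rats given oxaliplatin lie mostly above those given D5W for both genes.

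Heart Smad7 followed oxaliplatin in a different order. The oxaliplatin difference was -0.23 at 1 h, +0.21 at 6 h and -0.26 at 24 h, and the change between times passed at each step, by +0.44 ± 0.11 to 6 h (adjusted p = 0.0346) and by -0.47 ± 0.11 to 24 h (adjusted p = 0.00276). Of 7 members it was the 1 called at each step, with 0.892% and 7.62% of genes called. These values are of the brightest probe set. The second gave +0.022, +0.086 and +0.0099 at the 3 times and the third -0.050, +0.012 and -0.10. Both averaged under the log2 of 6 that the filter used, at 5.90 and 4.86. At 24 h Smad7 averaged 7.15 ± 0.17 after oxaliplatin and 7.40 ± 0.24 after D5W (-0.26 ± 0.08, adjusted p = 0.0133), and Bmpr2 8.70 ± 0.54 and 9.23 ± 1.06 (-0.54 ± 0.16, adjusted p = 0.0128). In water rats alone the differences were -0.46 ± 0.11 and -1.26 ± 0.23, and in F68 rats alone -0.05 ± 0.11 and +0.18 ± 0.23. The D5W then water group at 24 h is 1 of the 2 heart groups that stood apart, and 19.2% of heart genes were called in this comparison against 2 of 7 members. In the same comparison red cell genes fell in 3 of 3 (10.34 to 10.85 after oxaliplatin, against 10.97 to 11.38), liver genes in 5 of 8 (median difference -0.86), and endothelial genes had 1 up and 2 down of 14 and fibroblast and smooth muscle genes 1 up and 2 down of 9. With the endothelial level as a covariate both members kept their calls, with the beta-actin difference Smad7 was -0.22 (adjusted p = 0.0804), and on the second probe sets Smad7 and Bmpr2 were +0.0099 and +0.044. The part of the red cell, liver and fibroblast markers in these values was not tested.

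Bmpr2 in heart had the largest differences of any member, and each called one drew on 1 of the 2 heart groups that stood apart. With sorafenib alone at 6 h Bmpr2 read 10.35, 10.84, 10.93 and 10.94, against 7.74, 7.94, 8.46 and 8.49 after D5W then F68, a rise of 2.61 ± 0.23 or 6.09-fold (10.76 ± 0.28 against 8.16 ± 0.38, n = 4 each, adjusted p = 7.55e-16). With sunitinib alone at 24 h it read 7.95, 8.43, 8.66 and 8.90, against 10.10, 10.14, 10.28 and 10.37 after D5W then water, a fall of 1.74 ± 0.23 or 3.34-fold (8.48 ± 0.40 against 10.22 ± 0.13, adjusted p = 5.4e-09). In the 22 other heart groups the mean lay between 7.67 and 8.97. The second Bmpr2 probe set read 6.83 and 6.92 in the 2 groups that stood apart, against 6.98 to 7.39 elsewhere, which is the opposite direction. The part of RNA quality in these values was not tested beyond the fit with the beta-actin difference as a covariate, in which both differences kept their calls.

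**Figure D5:**
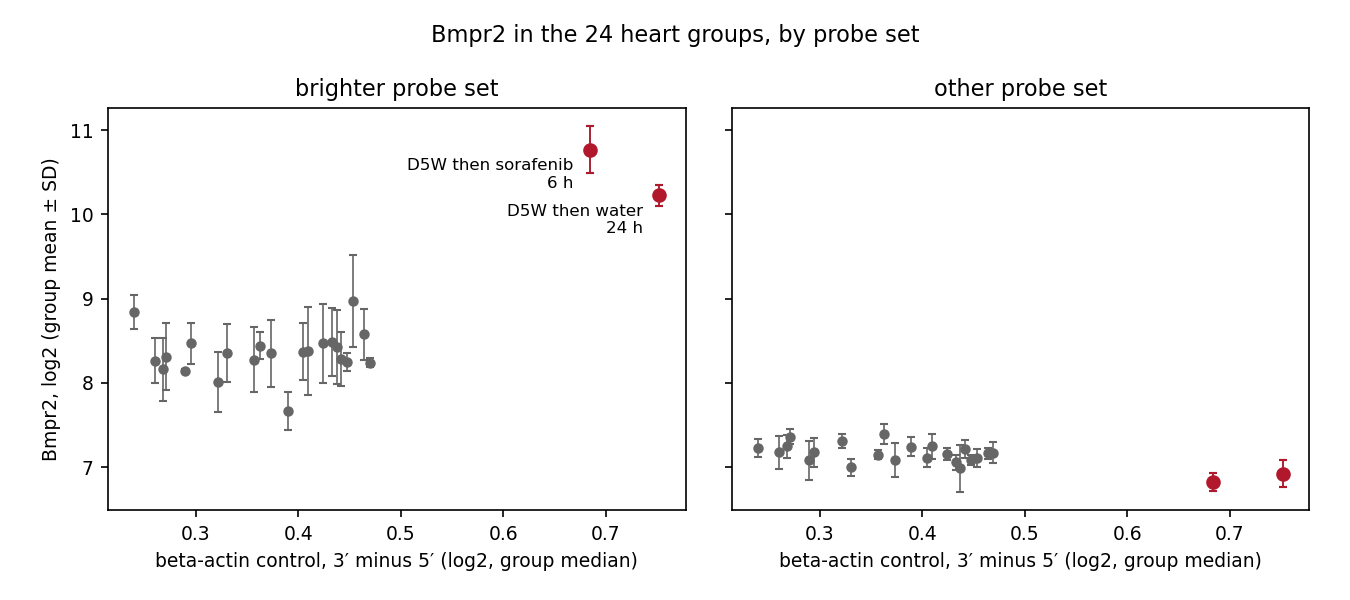
Bmpr2 log2 signal (vertical axis, mean and SD of each of the 24 heart groups) by its brightest (left) and its second probe set (right), against the group median of the 3′ minus 5′ beta-actin difference. D5W then sorafenib at 6 h and D5W then water at 24 h, in red, lie at 10.76 and 10.22 on the brightest probe set and at 6.83 and 6.92 on the second.

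The inhibitory SMADs moved in the same heart comparisons. With sorafenib alone at 6 h, Smad6 read 8.05, 8.09, 8.12 and 8.27, against 8.60, 8.61, 8.64 and 8.65 with F68 (-0.49 ± 0.08, adjusted p = 5.41e-07). Smad7 read 7.53, 7.55, 7.69 and 7.84, against 6.88, 7.20, 7.33 and 7.36 with F68 (+0.46 ± 0.11, adjusted p = 0.00054). On these brightest probe sets the 2 inhibitors went opposite ways. On the second probe sets Smad6 averaged 7.30 and 7.32 in sorafenib and F68 rats (-0.025, adjusted p = 0.835). Smad7 averaged 5.78 and 6.00 there (-0.22, adjusted p = 0.0329), so that both results depend on the probe set. That Smad7 probe set averaged 5.90 over the heart arrays, under the log2 of 6 that the filter used. The third Smad7 probe set, lower still at 4.86, gave +0.56. With the beta-actin difference as a covariate Smad6 was -0.30 (adjusted p = 0.0343) and Smad7 +0.36 (adjusted p = 0.0793). Smad6 also differed with sorafenib after oxaliplatin (F = 7.42 over the 3 times, adjusted p = 0.00712), a comparison that uses neither group that stood apart. The difference was -0.20 ± 0.08 at 1 h, -0.29 ± 0.08 at 6 h and +0.13 ± 0.08 at 24 h. At 6 h the values were 8.21, 8.39, 8.41 and 8.58 after oxaliplatin then sorafenib, against 8.57, 8.59, 8.68 and 8.91 after oxaliplatin then F68, and the second probe set averaged 7.38 and 7.43 there. By the second probe set the test over the 3 times did not pass (F = 0.257, adjusted p = 0.907).

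With sunitinib alone at 24 h, Smad7 read 7.01, 7.11, 7.14 and 7.21, against 7.34, 7.48, 7.51 and 7.76 with water (-0.41 ± 0.11, adjusted p = 0.00354), again set against the D5W then water group that stood apart. The call ended with the beta-actin difference (-0.33, adjusted p = 0.0911) or the endothelial level (-0.26, adjusted p = 0.094) as a covariate, and on the second probe set the difference was -0.012 (5.79 against 5.81, adjusted p = 0.94). Of the members, 3 of 7 were called with sorafenib at 6 h and 2 of 7 with sunitinib at 24 h, where 41.9% and 25.4% of heart genes were. At the other times 0 of 7 members were called: for sunitinib, 2 and 0 had an unadjusted p under 0.05 at 1 and 6 h, with 10.0% and 0% of genes called, and for sorafenib 0 and 1 did at 1 and 24 h, with 12.2% and 7.05% called. Endothelial markers went both ways with sorafenib at 6 h, 6 up and 5 down of 14, macrophage markers fell in 4 of 9 (8.17 to 8.38, against 8.43 to 8.99), and fibroblast and smooth muscle markers had 5 up and 2 down of 9 (10.23 to 10.41, against 10.18 to 10.29). With sunitinib at 24 h 2 endothelial genes rose and 5 fell (9.14 to 9.20, against 9.21 to 9.43 with water), and fibroblast and smooth muscle genes fell in 5 of 9 (10.17 to 10.29, against 10.32 to 10.50). Liver markers on the heart arrays with sorafenib at 6 h ranged from 6.25 to 8.07, against 6.19 to 6.40 with F68. With the endothelial level as a covariate Smad6 and Smad7 at 6 h kept their calls, at -0.49 and +0.42. The part of the macrophage, fibroblast and liver markers in the results was not tested.

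In heart the other tests over the 3 times called 1 member each. Smad7 passed for the interaction of sunitinib with oxaliplatin (F = 4.77, adjusted p = 0.0311), where 17.2% of genes did, and Bmpr2 for that of sorafenib (F = 26.2, adjusted p = 1.72e-09), where 18.5% did, and both tests use a group that stood apart. The 1 member called for sorafenib after oxaliplatin, Smad6, stood beside 12.0% of genes. For sunitinib after oxaliplatin, 0 of 7 members passed (1 at an unadjusted p under 0.05) and 0% of genes.

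In kidney Smad7 was the single member called for any 1 drug, with a difference of -0.29 ± 0.07 at 6 h after oxaliplatin. It read 7.68, 7.82, 7.87 and 7.92 with water and 7.90, 8.01, 8.11 and 8.30 with F68 after oxaliplatin, against 8.01, 8.09, 8.28 and 8.29 with water and 8.13, 8.21, 8.40 and 8.56 with F68 after D5W (7.95 ± 0.19 against 8.25 ± 0.18, n = 8 each, adjusted p = 0.00187). The groups overlapped when the vehicles were pooled, and the difference was -0.35 ± 0.11 in water rats and -0.24 ± 0.11 in F68 rats. The second Smad7 probe set averaged 5.68 with water and 5.82 with F68 after oxaliplatin, against 5.99 and 6.17 after D5W. Of the marker genes tested, 3 of 9 kidney, 1 of 14 endothelial and 1 of 8 macrophage genes fell, and 0 rose. The part of the kidney and macrophage markers in this result was not tested. The 1 of 7 members called compares with 20.6% of kidney genes. At 1 and 24 h after oxaliplatin 0 of 7 were called (2 and 0 at an unadjusted p under 0.05), with 9.41% and 7.80% of genes called, and Id1 at 1 h was 0.31 ± 0.12 (adjusted p = 0.0954).

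Neither kinase inhibitor gave a called member in kidney. After sunitinib 0 of 7 members passed at 1, 6 and 24 h (0 at an unadjusted p under 0.05 each time), beside 0.0244%, 0% and 0% of genes. After sorafenib 0 of 7 passed (0, 2 and 1 at an unadjusted p under 0.05), beside 0%, 0.0731% and 0.203%. For sunitinib and sorafenib after oxaliplatin, tested over the 3 times, 0.00812% and 0.203% of genes were called and 0 of 7 members (1 and 0 unadjusted), and for the interactions of sunitinib and sorafenib 0% and 0.0162% and 0 of 7 (1 and 0 unadjusted).

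The members also varied with time and oral vehicle in rats that had no drug. In heart, vehicle rats at 6 h had lower Id1 (-0.27 ± 0.10, adjusted p = 0.0278), Id3 (-0.22 ± 0.08, adjusted p = 0.0322) and Smad7 (-0.39 ± 0.08, adjusted p = 5.64e-05) and higher Smad6 (0.14 ± 0.06, adjusted p = 0.0441) than at 1 h. At 24 h against 6 h Smad6 was lower (-0.42 ± 0.06, adjusted p = 3.09e-09), and Smad7 (0.20 ± 0.08, adjusted p = 0.0249) and Bmpr2 (1.15 ± 0.16, adjusted p = 1.45e-08) were higher. These 4 and 3 of 7 members stood beside 36.8% and 51.8% of heart genes. In every tissue the 24 h arrays carry another code in their titles than the 1 and 6 h arrays. The labels do not say what the code stands for. In the comparisons of 24 h with 6 h, collection time and this code therefore cannot be told apart. The 24 h vehicle rats include the D5W then water group that stood apart.

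In liver, Smad7 was higher at 24 h than at 6 h (7.14 ± 0.46 against 6.65 ± 0.23, 0.50 ± 0.13, adjusted p = 0.0111), the 1 call of 7 beside 7.34% of genes. The second Smad7 probe set averaged 5.43 with water and 5.40 with F68 at 24 h, against 5.33 and 5.25 at 6 h. All these lie under the log2 of 6 that the filter used. At 6 h against 1 h 0 of 7 members passed (2 unadjusted), beside 11.3%. In kidney 0 of 7 passed at either step (3 and 1 unadjusted), beside 1.98% and 7.33%. The oxaliplatin difference changed between times for 0 of 7 members in liver (0 and 2 unadjusted, 1.29% and 9.14% of genes) and in kidney (1 and 2 unadjusted, 7.99% and 11.3%).

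F68 against water, after D5W and over the 3 times, called Bmpr2 in heart (F = 25.0, adjusted p = 2.94e-09), beside 27.6% of genes. It called Smad7 in liver (F = 6.93, adjusted p = 0.0449), beside 0.938%. Liver Smad7 at 24 h averaged 6.78 ± 0.08 with F68 and 7.51 ± 0.36 with water. In kidney 0 of 7 members were called (2 unadjusted), beside 7.41%. The vehicle and the dosing day move together in these tests.

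The rest of the pathway was read from a list of 60 genes, of which 46 passed the filter in kidney and 45 each in heart and liver. Among ligands, Inhbb, an activin subunit that signals through SMAD1 in mouse hepatocytes, rose in liver 1 h after oxaliplatin by 1.32 ± 0.12 (adjusted p = 1.92e-13), the largest called difference of a listed gene in liver. Inhba, the other activin subunit, was -0.84 at 6 h after oxaliplatin. Bmp2, a ligand that liver endothelium makes in mouse, was -0.32 and -0.39 at 1 and 6 h, and the E protein gene Tcf4 -0.31 at 1 h. In liver after oxaliplatin the list thus had 1 gene up and 2 down at 1 h, 0 up and 2 down at 6 h and, at 24 h, Eng up by 0.24 as its 1 call, beside 3.46%, 10.4% and 6.42% of all liver genes.

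In kidney 1 h after oxaliplatin 5 listed genes rose and 5 fell of 46, beside 9.41% of all kidney genes. Tgif1, a repressor that binds SMAD2 and SMAD3, rose by 1.23 ± 0.08 (adjusted p = 4.33e-22), and Bambi, a decoy receptor, by 0.60. Klf10, a TGF-beta target, was 0.36, and Smad3, a carrier of TGF-beta signals, -0.37. At 6 h 3 rose and 2 fell, among them Bambi and the BMP antagonist Chrd, at 0.16 and 0.23, and Bmp4 and Tcf4, at -0.25 and -0.32, beside 20.6% of all genes. At 24 h, beside 7.80%, Fstl3, a follistatin-like inhibitor, was 0.30 and the ligand gene Tgfb3 -0.22.

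In heart after oxaliplatin 0 listed genes rose and 2 fell at 1 h (the activin antagonist Fst at -0.35 and Tgfbr1 at -0.19), 3 rose and 0 fell at 6 h, and 3 rose and 6 fell at 24 h, with Bmpr1a at -0.34, Fstl3 at 0.32, Tgfb3 at 0.27 and Smad9 at -0.26. Of all heart genes 1.23%, 0.866% and 19.2% were called, the last against vehicle rats that include the D5W then water group. Sunitinib had 1 up and 3 down at 1 h, with Bmp2 at -0.59, Fst at -0.49, Bmpr1a at 0.34 and Tgfbr1 at -0.22, beside 10.0% of all genes. At 24 h, against the D5W then water group that stood apart, it had 4 up and 8 down of 45, beside 25.4% of all genes, with the type I receptor gene Bmpr1a at -0.69, Bmp6 at -0.39, Bmp2 at 0.39 and Acvr2a at -0.38.

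Sorafenib in heart had 1 up and 5 down at 1 h, beside 12.2% of all genes, with Bambi at -0.35, Bmp7 at 0.31, Smad3 at -0.30 and Smurf1 at -0.30. At 6 h, in the group that stood apart, 14 rose and 4 fell of 45, beside 41.9% of all genes, and receptors had 6 of 11 up and 0 down. Bmpr1a was 0.77, Twsg1, which binds BMPs outside the cell, 0.61 and Hey1 0.58, and the antagonist Nbl1 -0.55. At 24 h, beside 7.05%, 0 rose and 3 fell (Tcf4 at -0.42, Smad1 at -0.35 and Tgfbr1 at -0.34). The list medians at 6 and 24 h were 0.07 and -0.07, against -0.03 and -0.03 over all heart genes.

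In liver 24 h after sorafenib alone 10 listed genes rose and 17 fell of 45, beside 67.3% of all liver genes, with a list median of -0.12 against -0.24 over all genes. Of the signal carriers 5 of 6 fell, in a comparison in which most genes were called, with Smad4 at -0.64 and Smad1 at -0.56, and Smad9 the 1 that rose, at 0.75. The largest falls were Klf10 at -1.27, Tcf4 at -1.11, Inhba at -1.11 and Bmp2 at -0.99. Sunitinib at 24 h had 0 up and 1 down, Acvr2a at -0.36, beside 0.964% of genes. In the other comparisons of 1 drug no listed gene was called in limma: at an unadjusted p under 0.05 were 7 in heart with sunitinib at 6 h, 1, 0 and 4 in kidney with sunitinib and 3, 3 and 5 with sorafenib at 1, 6 and 24 h, and 1 and 0 in liver with sunitinib and 7 and 1 with sorafenib at 1 and 6 h.

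The genes whose group means ran closest to those of Id1 differed by tissue. In liver they were Ecscr, an endothelial surface gene (Pearson r = 0.89 over 24 group means), Aen, a p53-induced nuclease (0.84), Timp1, a metalloproteinase inhibitor (0.83), Smg5 (0.82) and Rcl1 (0.79). In heart they were Cebpb, a transcription factor of acute responses (0.86), Rab11a, Ifngr1 and Cavin3 (each 0.85) and the cell cycle inhibitor Cdkn1a (0.84). In kidney they were Slc25a33 (0.81), Cldn7, Bag5 and Jmjd1c (each 0.80) and Snrnp48 (0.79). Among members, Id1 and Id3 had r = 0.63 in heart and 0.66 in kidney, and in liver the highest values were Id2 with Smad7 at 0.70 and Id3 with Id4 at 0.64. All points of a tissue share their rats, vehicles and normalization, so these are descriptions.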

How the data were processed

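RNA from heart, kidney and liver of 96 rats was hybridised, 1 array per rat and tissue, to Affymetrix rat genome arrays. The deposited values are log2 signals that the authors computed by RMA; the version, and whether tissues were normalized together, are not given in the sources used here. The table held 31099 probe sets, 57 of them controls. Of the probe sets, 20832 had 1 gene symbol in the platform annotation, 436 several and 9831 none, and 20764 matched RefSeq by Entrez identifier. Each gene was given by its brightest probe set in the tissue and kept where log2 was over 6 on at least 4 arrays. Promoters are RefSeq's (GRCr8).

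Group means were fitted per tissue in limma 3.58.1 (R 4.3.3) with eBayes and Benjamini-Hochberg adjustment. Each oxaliplatin effect averaged both oral vehicles (8 rats against 8), sunitinib was set against water and sorafenib against F68. The 2 arrays whose tissue markers opposed their labels were left out. The labels number no replicates, so numbers follow accession order and only name a rat. The number of arrays limits the precision.

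The 7 members, all of them named, and the lists of pathway and marker genes were chosen with earlier results of these data known. Of the 60 pathway genes, up to 4 called genes with the largest difference are named per comparison; the 2 Smad genes with further values in liver at 24 h, and Smad9, were named after their values were seen. For Id1, the 5 genes with the highest Pearson correlation over 24 group means are named, without provisional symbols. Alternatives changed the normalization, filter, probe set, samples, moderation, array weights, covariates and arrays left out. Fits were tested on simulated data.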

Additional observations from a re-analysis of the deposited data

Results flagged for a closer look

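Of 43 groups of 4 rats in which a called member was measured, 2 had a rat far from the other 3 by Dixon's criterion (the gap to the nearest rat over the group's range, against the 95% critical value for 4 samples), about as many as the 1 in 20 that chance gives. Liver Id1 in replicate 2 of D5W then F68 at 1 h was 8.19, and the other 3 rats lay between 8.54 and 8.60 (gap over range 0.850). Liver Id1 in replicate 3 of oxaliplatin then F68 at 6 h was 8.82, and the others lay between 9.13 and 9.20 (0.832). After a further quantile normalization 2 groups met the criterion, and 0 of the original 2 were among them.

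Effects that differed between times or infusions were these. By its brightest probe set, the oxaliplatin effect on heart Smad7 changed by 0.44 between 1 and 6 h and by -0.47 between 6 and 24 h. By the second, dimmer probe set the effect was +0.022, +0.086 and +0.0099 at 1, 6 and 24 h. Over the 3 times, the effect of sunitinib on heart Smad7 differed after oxaliplatin and after D5W (F = 4.77). So did the effect of sorafenib on heart Bmpr2 (F = 26.2) and on liver Id1 (F = 5.74). Both heart tests use a heart group that stood apart in its beta-actin difference. By the second probe set, heart Smad7 with sunitinib at 24 h after D5W was -0.012, and heart Bmpr2 with sorafenib at 6 h after D5W -0.42. The liver test uses the 3 rats kept from D5W then sorafenib at 24 h. Against F68, 67.3% of liver genes were called in that group.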

How the results depend on the processing

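Over the 3 times, oxaliplatin called 4 member results in heart, 1 in kidney and 3 in liver, sunitinib 2 in heart and sorafenib 3 in heart and 4 in liver. For oxaliplatin in heart the count was 2 when only the 8 groups of the same time were fitted, 2 with the beta-actin difference and 2 with the endothelial level as a covariate, and 0 within F68 rats. For oxaliplatin in kidney it was 2 with the most variable probe set, 2 within water rats and 0 within F68 rats. For oxaliplatin in liver it was 5 with array weights and 1 with all arrays as labelled. Sunitinib in heart called 1 with either covariate, and sorafenib in liver 2 with the endothelial covariate and 2 with all arrays as labelled. The second brightest probe set, chosen after seeing the data, called 1 for sunitinib in heart, 5 for sorafenib in heart, 2 for oxaliplatin in kidney and 5 for oxaliplatin in liver. The counts of 0 for sunitinib in kidney and liver and sorafenib in kidney did not move. Leaving out 1 rat gave, for oxaliplatin, 2 to 4 calls in liver, 3 to 4 in heart and 1 to 1 in kidney, 2 to 3 for sunitinib in heart, and 3 to 3 and 4 to 4 for sorafenib in heart and liver.

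Directions turned in these cases. Heart Bmpr2 24 h after oxaliplatin was +0.18 within F68 rats. By the second probe set, heart Smad7 was -0.22 and Bmpr2 -0.42 with sorafenib at 6 h, Smad7 +0.0099 and Bmpr2 +0.044 with oxaliplatin at 24 h, and Bmpr2 +0.14 with sunitinib at 24 h. In heart vehicle rats Smad7 was +0.071 from 1 to 6 h and -0.19 from 6 to 24 h, and Bmpr2 -0.28 from 6 to 24 h. Liver Bmpr2 was +0.83 with sorafenib at 24 h. The second Smad7 probe set averaged 5.90 over the heart arrays, under the log2 of 6 that the filter used. The cause of these turns was not tested. Id1 and Id3 have 1 probe set each, so no second probe set could be read for them in any tissue. Liver Id1 after oxaliplatin kept its call at 1 and 6 h in each fit that left out a rat, but at 1 h lost it within F68 rats (adjusted p = 0.441) and with all arrays as labelled (adjusted p = 0.087). Heart Smad7 at 24 h lost its call without replicate 1 of D5W then water (-0.22, adjusted p = 0.0529). No paired analysis was possible because the labels number no replicates.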
